A study of Mus musculus with 6 samples.

Results

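The Hox genes of the E13.5 mouse heart are described here. Members were all genes of the deposited tables whose symbol is Hox followed by the cluster letter a, b, c or d and a number, which gave 39 of the 46983 genes listed. Of these, 11 belong to the Hoxa cluster, 10 to Hoxb, 9 to Hoxc and 9 to Hoxd. RNA of whole hearts was sequenced from 3 mutant embryos (replicates 1, 5 and 10) and 3 control embryos (replicates 2, 3 and 5) of a C57BL/6 x DBA/2 background, with 1 heart in each library. The mutants, labelled TnnT2Cre;Wt1flox, carried 1 Tnnt2 Cre allele and 2 floxed Wt1 alleles. The controls, labelled wild type, are given in the study's methods as Cre-negative with both Wt1 alleles floxed, so every heart carried the floxed alleles. The Tnnt2 promoter drives Cre in the cardiomyocyte lineage, and the study also traces a substantial part of the epicardial cells at this stage to that lineage. In the embryonic heart WT1 is found mainly in the epicardium, and the study also reports low WT1 expression in a fraction of the cardiomyocytes.

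Hox genes encode homeodomain transcription factors that give cells of the trunk their position along the head-to-tail axis. In each cluster the genes lie in the order of their paralogue number. Those with low numbers, at the 3′ end, are switched on first and farthest towards the head, in part by retinoic acid. The heart forms from mesoderm near the front limit of Hox expression. In the embryo some of the 3′ genes, such as Hoxb1 and Hoxa3, mark progenitors of the posterior second heart field, which give rise to the outflow tract and the inflow region.

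The Hoxa cluster spans 105 kb on chromosome 6 (GRCm38, 52155590 to 52260880), and the Hoxb cluster 174 kb on chromosome 11 (96194316 to 96368256). The Hoxc cluster spans 116 kb on chromosome 15 (102921103 to 103036852), and the Hoxd cluster 97 kb on chromosome 2 (74668310 to 74765142). All 39 genes are annotated as protein-coding. To show what precedes the genes that the results turn on, the 250 bases before the start of Hoxa5, Hoxb4 and Hoxd8 are printed, each the gene with the highest level of its cluster. These bases are taken from RefSeq (GRCm38.p6), read 5′ to 3′ on the strand of the gene. Capitals mark CCAAT, the box bound by NF-Y, and AGGTCA, the hexamer bound by nuclear receptors including those for retinoic acid, or their reverse complements.
Hoxa5 (chr6:52204588-52204837, minus strand): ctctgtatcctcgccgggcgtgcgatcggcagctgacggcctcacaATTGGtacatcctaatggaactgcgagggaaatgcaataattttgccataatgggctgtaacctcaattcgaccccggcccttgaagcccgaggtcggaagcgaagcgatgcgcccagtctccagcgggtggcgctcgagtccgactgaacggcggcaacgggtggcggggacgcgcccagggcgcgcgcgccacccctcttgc
Hoxb4 (chr11:96318017-96318266, plus strand): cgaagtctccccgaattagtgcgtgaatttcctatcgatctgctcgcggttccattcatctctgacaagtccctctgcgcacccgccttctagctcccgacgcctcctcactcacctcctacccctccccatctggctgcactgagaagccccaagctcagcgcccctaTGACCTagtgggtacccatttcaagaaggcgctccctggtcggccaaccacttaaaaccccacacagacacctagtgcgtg
Hoxd8 (chr2:74704365-74704614, plus strand): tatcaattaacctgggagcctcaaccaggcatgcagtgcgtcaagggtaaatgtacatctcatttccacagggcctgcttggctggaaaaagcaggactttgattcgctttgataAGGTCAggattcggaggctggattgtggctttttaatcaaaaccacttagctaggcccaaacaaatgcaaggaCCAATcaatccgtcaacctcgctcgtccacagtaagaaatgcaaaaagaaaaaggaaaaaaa

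None of these windows holds an annotated exon. The Hoxa5 window lies within introns of Hoxa3 and of the antisense transcript Hoxaas3, and the Hoxd8 window within an intron of the antisense transcript Hoxd3os1. Cytosine followed by guanine was more frequent before Hoxa5 than its base composition gives, with an observed over expected ratio of 1.11, against 0.760 before Hoxb4 and 0.487 before Hoxd8. Of the 39 genes, 22 had an entry in the promoter table, with 24 entries in all. Their median ratio was 0.721, against 0.374 over the 32851 entries of all genes. CCAAT was present on either strand in 14 of the 24 windows (58.3%) and in 33.8% of all windows. AGGTCA was present in 6 of the 24 (25.0%) and in 14% of all. A TATAAA box was present in 4 of the 24 (16.7%) and in 12.4% of all. These matches are letters in a window and say nothing of binding.

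Library totals ran from 44244665 counts in wild type replicate 5 to 56373393 in wild type replicate 3. Wt1 itself, counted over the whole gene, stood at 39.97, 32.9 and 19.97 CPM, the count scaled to the size of the library, in wild type replicates 2, 3 and 5 and at 17.7, 33.3 and 35.7 in mutant replicates 1, 5 and 10. The groups overlapped, with a log2 fold change of −0.10 ± 0.31 (SE) and an adjusted p of 0.990. These counts also cover exons outside the deleted part and cells outside the Cre lineage, so they do not check the labels. Cardiomyocyte genes were high in every heart, with Tnnt2 between 3875 and 4483 CPM. A pair of observations touch the Hox values below. Wild type replicate 3 held liver transcripts, with the summed level of 8 liver genes at 794.7 CPM against 3.07 to 22.5 CPM in the other 5 hearts. Wild type replicate 5 and mutant replicate 5 held transcripts of lung and foregut epithelium, with 10 such genes at 18.8 and 18.7 CPM against 1.15 to 6.56 CPM in the other hearts. Not all of these genes followed the sum. Krt5 was lowest in wild type replicate 5 and mutant replicate 5, at 0.0227 and 0.0191 CPM, and highest in wild type replicate 3, at 2.56 CPM. Cdh1 was higher in wild type replicate 3 (1.86 CPM) than in wild type replicate 5 (1.43 CPM), and Sftpc had 1 count in each replicate 5. Results that rest on wild type replicate 3 are therefore given with and without it. Over all genes tested, wild type replicate 5 was the heart most often highest (29.4% of genes) and most often lowest (31.1%). Fold changes without that heart are given further below.

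Most Hox transcripts of these hearts came from genes with paralogue numbers 3 to 5, and few from numbers 9 to 13. Levels are given first as FPKM, the count scaled to the length of the gene and the total of the library, since only values per length can be compared between genes. Hoxa5, known for its part in lung, tracheal and cervical skeleton development, had the highest mean level of the 39 genes, 5.12 ± 3.24 FPKM (SD, n = 6), above 62.4% of the 26831 genes with at least 1 count. Hoxb4, a factor studied in blood stem cells, followed at 2.03 ± 0.318 FPKM. Next came Hoxa3, needed for the thymus, parathyroids and carotid body, at 1.69 ± 0.635 FPKM, Hoxa4 at 1.49 ± 0.599 FPKM and Hoxc5 at 1.15 ± 0.830 FPKM. Hoxb4, Hoxa3, Hoxa4 and Hoxc5 are neighbours in this order, and the means of adjacent genes differed by less than the larger SD. Hoxb4 nevertheless stood above Hoxa4 in each heart, and the order was not tested. Hoxb3 (1.11 FPKM), Hoxd8 (0.865 FPKM) and Hoxc4 (0.843 FPKM) were close behind. Hoxa2, a hindbrain and second arch gene, averaged 0.551 FPKM.

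**Figure D1:**
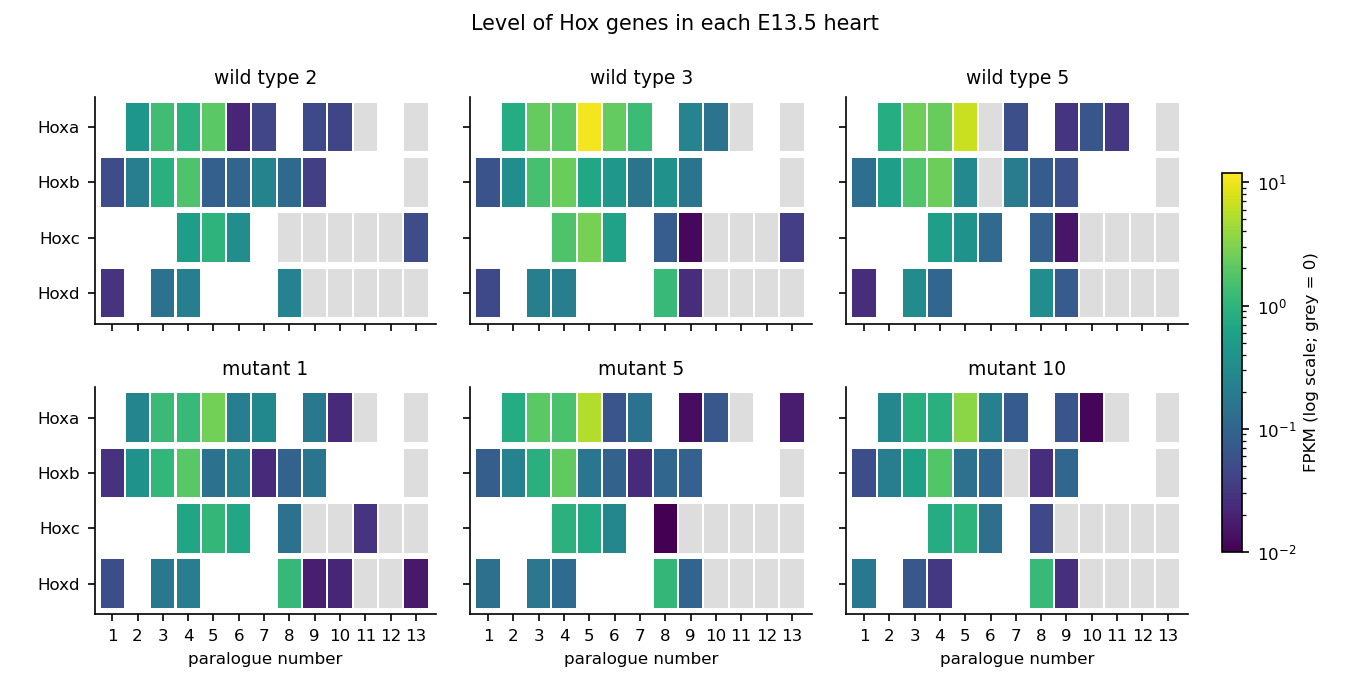
Each panel is a heart, each row a Hox cluster and each column a paralogue number, and the colour of a cell is the FPKM on a log scale, with grey for a gene listed at 0 and white where no gene is drawn. In each heart the brightest cell is that of Hoxa5, at 1.95 to 10.7 FPKM, and the cells from 10 to 13 are mostly grey.

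The level fell with the paralogue number in each cluster. Spearman's rho between number and mean FPKM was −0.83 over the 11 Hoxa genes, −0.50 over the 10 Hoxb genes, −0.75 over the 9 Hoxc genes and −0.79 over the 9 Hoxd genes. These are descriptions across genes, which share the same 6 libraries and are no independent replicates. The decline was not even: the peak was at Hoxa5 in Hoxa, at Hoxb4 in Hoxb, at Hoxc5 in Hoxc and, beyond a gap, at Hoxd8 in Hoxd. As the mean of the 6 hearts' own shares, Hoxa took 54.2% of the Hox FPKM, Hoxb 24.4%, Hoxc 13.6% and Hoxd 7.72%.

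Summed over a paralogue number, group 5 had the largest mean share, 33.9% of the Hox FPKM, followed by group 4 with 25.9% and group 3 with 16.9%. Group 2 held 4.83%. Groups 1 to 4 together held 51.6%, groups 5 to 8 46.5% and the 16 genes of groups 9 to 13 1.83%. In wild type replicate 3 and mutant replicate 10 groups 5 to 8 exceeded groups 1 to 4, with 62.2% against 35.9% and 49.98% against 48.5%. In each heart the groups 9 to 13 summed to between 0.179 FPKM (wild type replicate 2) and 0.622 FPKM (wild type replicate 3), while groups 1 to 4 summed to between 6.23 FPKM (mutant replicate 10) and 11.9 FPKM (wild type replicate 5).

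**Figure D2:**
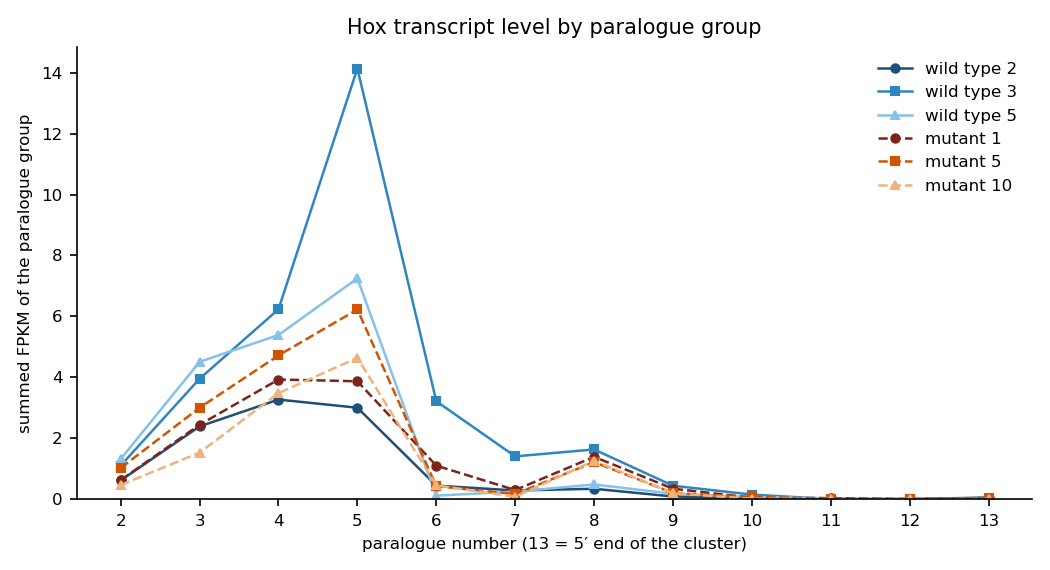
The summed FPKM of paralogue groups 2 to 13 is drawn for the 6 hearts, with solid lines for wild type and broken lines for mutant hearts. Each line peaks at group 4 or 5 and is near 0 from group 10 on, and wild type replicate 3 stands apart at group 5 with 14.1 FPKM.

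Of the 39 genes, 15 had more than 3 counts, the limit used here for detection, in every heart, and 11 had 3 counts or fewer in every heart. Those 11 were Hoxa11, Hoxa13, Hoxb13, Hoxc9, Hoxc10, Hoxc11, Hoxc12, Hoxd10, Hoxd11, Hoxd12 and Hoxd13, most of them known for the limbs, urogenital tract and tail. Hoxb13, Hoxc10, Hoxc12, Hoxd11 and Hoxd12 had 0 counts in every library, which allows up to 3 counts in each and covers counting error only. The other 13 genes passed the limit in some hearts and not in others. They were Hoxa6, Hoxa7, Hoxa9, Hoxa10, Hoxb1, Hoxb6, Hoxb7, Hoxb8, Hoxc8, Hoxc13, Hoxd1, Hoxd4 and Hoxd9. Hoxb1, which marks early cardiac progenitors, was listed at 4, 5 and 8 counts in the wild type and at 2, 6 and 4 in the mutant hearts. Hoxc13 is a gene of hair and tail, and it had 7, 5 and 0 counts in the wild type hearts and 0 in each mutant heart.

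Hearts differed widely in some members and little in others. Hoxb4 was the steadiest in proportion, with CPM between 4.16 (wild type replicate 2) and 6.27 (wild type replicate 5). Its coefficient of variation over the 6 hearts was 15.2%, against 6.09% from counting error alone. Hoxa5 varied by 61.9% against 4.47% from counting, and its highest heart stood 5.47-fold above its lowest, or 3.46-fold without wild type replicate 3. Hoxc5 varied by 70.4%, with a 7.52-fold range, or 3.02-fold without that heart. Among the genes above 3 counts in every heart the widest range was that of Hoxb5, a lung and gut gene, at 7.92-fold, which came to 3.37-fold without that heart. Without it the widest ranges were those of Hoxc6, 5.93-fold, and Hoxd8, 5.54-fold.

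**Figure D3:**
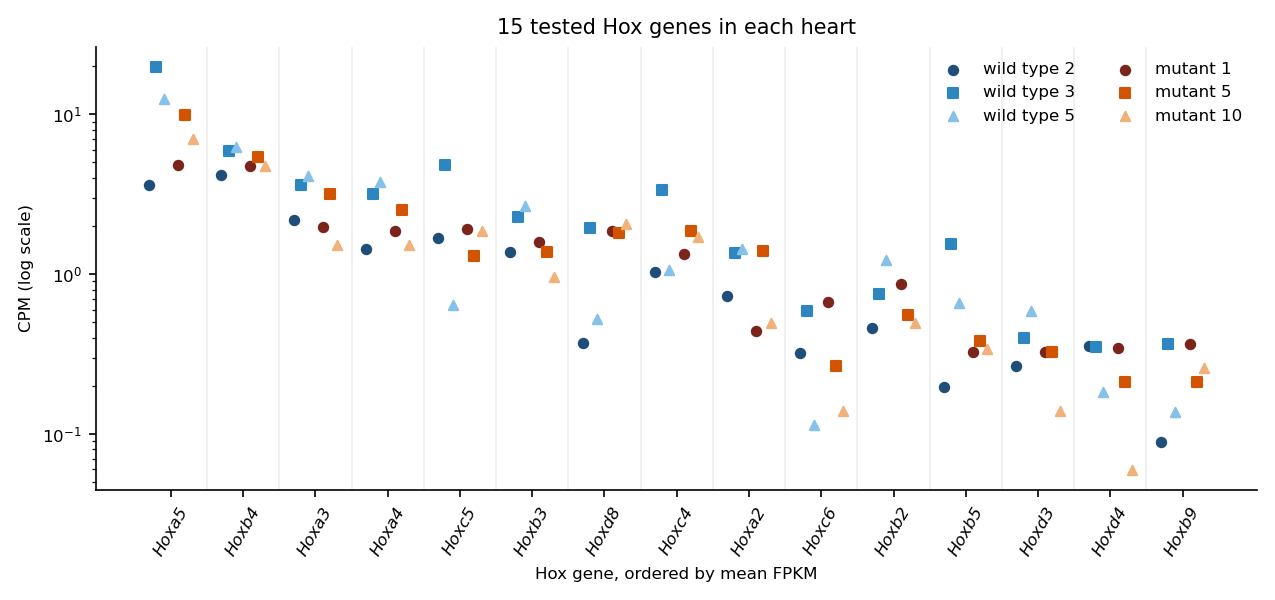
CPM of 15 of the 16 Hox genes that passed the filter on low counts, on a log axis, with 1 point per heart, blue for wild type and red to orange for mutant hearts. The mutant and wild type points overlap in each of the 15 genes, and Hoxb4 has the narrowest column of points.

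The comparison of mutant with wild type hearts asked which of these genes differ when Wt1 is deleted in the Tnnt2 lineage. No Hox gene passed the threshold. The test was the quasi-likelihood test of edgeR, adjusted by Benjamini-Hochberg over the 17473 genes that passed the filter on low counts, at an adjusted p under 0.05, and 16 of the 39 members were among those tested. A background of 0.0% of all genes tested passed, that is 0 of 17473. At an unadjusted p under 0.05 the count was 0 of the 16 members, against 5.73% of all genes. The groups overlapped in all 16, while 11.2% of all genes tested had groups that did not overlap. Of the 16, 12 had a lower and 4 a higher mean in the mutants. The median log2 fold change was −0.50, against −0.001 over all genes tested, and −0.14 without wild type replicate 3. In whole hearts fewer cells of a type and less RNA per cell cannot be told apart.

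Hoxb3, expressed in the pharyngeal region and hindbrain, had the smallest p. It stood at 1.37, 2.28 and 2.66 CPM in wild type replicates 2, 3 and 5 and at 1.60, 1.37 and 0.954 CPM in mutant replicates 1, 5 and 10. Wild type replicates 3 and 5 lay above all mutant hearts, and wild type replicate 2 lay among them. The log2 fold change was −0.68 ± 0.33 (SE), with an adjusted p of 0.915 by edgeR. Of the Hoxb3 exon bases, 52.9% are shared with the antisense gene Hoxb3os on the opposite strand. The strand setting of the counting is not given in the sources used here, so reads of the 2 genes may be mixed.

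Hoxa3 also stood higher in wild type replicates 3 and 5 than in any mutant heart. Its CPM were 2.18, 3.60 and 4.11 in the wild type and 1.96, 3.17 and 1.51 in the mutant hearts, with a log2 fold change of −0.57 ± 0.34 and an adjusted p of 0.956 by edgeR. Opposite-strand transcripts share 25.4% of its exon bases. Hoxa4 had 1.44, 3.17 and 3.75 CPM in the wild type and 1.85, 2.50 and 1.51 CPM in the mutant hearts, a log2 fold change of −0.51 ± 0.37 with an adjusted p of 0.981. In both genes wild type replicate 2 and mutant replicates 1 and 10 were low, and the other hearts high.

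Hoxb4 differed least among the 5 genes with the highest level. It stood at 4.16, 5.90 and 6.27 CPM in the wild type and at 4.77, 5.40 and 4.77 CPM in the mutant hearts, 5.44 ± 1.13 against 4.98 ± 0.363 CPM (SD, n = 3 each). The log2 fold change was −0.13 ± 0.20 with an adjusted p of 0.985 by edgeR. The gene shares no exon base with another annotated gene.

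Hoxa5 ran from 3.61 CPM in wild type replicate 2 to 19.7 CPM in wild type replicate 3, with 12.5 CPM in wild type replicate 5. The mutants stood at 4.83, 9.96 and 6.96 CPM, within the wild type range. The log2 fold change was −0.72 ± 0.53 with an adjusted p of 0.981 by edgeR, and −0.14 without wild type replicate 3. Hoxb5, its paralogue in the Hoxb cluster, had 0.195, 1.55 and 0.659 CPM in the wild type and 0.327, 0.382 and 0.338 CPM in the mutant hearts. The mutants were close together, and the wild type hearts lay on both sides of them. The log2 fold change of Hoxb5 was −1.20 ± 0.66, with an adjusted p of 0.939, and −0.27 without wild type replicate 3.

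Hoxc4, Hoxc5 and Hoxc6 lie side by side at the 3′ end of the Hoxc cluster and are known from the lower neck and upper chest. Hoxc5 had 1.69, 4.78 and 0.636 CPM in the wild type and 1.92, 1.30 and 1.85 CPM in the mutant hearts. Hoxc4 had 1.03, 3.36 and 1.07 CPM in the wild type and 1.33, 1.87 and 1.71 CPM in the mutant hearts. In both genes wild type replicate 3 was highest. The direction depended on that heart: the log2 fold changes were −0.49 ± 0.61 for Hoxc5 and −0.16 ± 0.47 for Hoxc4 with all hearts, and 0.53 ± 0.45 and 0.64 ± 0.31 without it, none past the threshold. The adjusted p with all hearts was 0.985 for Hoxc5 and 0.990 for Hoxc4 by edgeR. Hoxc6 stood between 0.114 CPM (wild type replicate 5) and 0.673 CPM (mutant replicate 1).

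Hoxd8 was the tested member with the largest difference towards the mutants. It had 0.373 CPM in wild type replicate 2 and 0.523 CPM in wild type replicate 5, and 1.87, 1.81 and 2.07 CPM in mutant replicates 1, 5 and 10. Wild type replicate 3 stood among the mutants at 1.95 CPM, so the groups overlapped. In counts, the wild type hearts had 21, 112 and 23 and the mutants 97, 95 and 104. The log2 fold change was 1.003 ± 0.56 with an adjusted p of 0.943 by edgeR with all hearts. Without wild type replicate 3 it was 2.10 ± 0.34 with an adjusted p of 0.272, still not past the threshold. In that fit 5.05% of all genes had an unadjusted p under 0.05, and 2 members did, Hoxd8 and Hoxd1. When the filter on low counts was also dropped, a fit added once the values were known, 0.357% of 26333 genes passed the adjusted threshold, and Hoxd8 was the member among them, at 2.11 ± 0.41 and an adjusted p of 0.00978. Wild type replicate 3 was the only wild type heart at the level of the mutants in Hoxd8. Leaving it out separates the groups and raises the fold change by itself, so these fits are partly set by the choice of heart. No exon base of Hoxd8 is shared with another annotated gene.

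**Figure D4:**
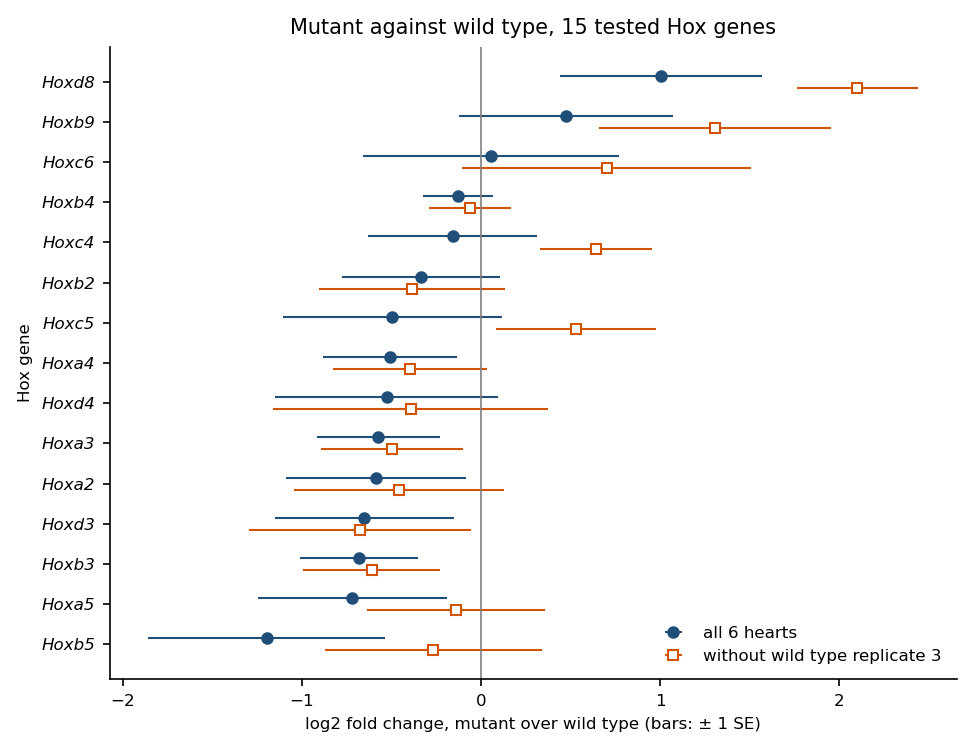
The log2 fold change of mutant over wild type, with bars of 1 SE, for 15 of the 16 tested Hox genes with all 6 hearts (filled circles) and without wild type replicate 3 (open squares). Without that heart Hoxd8 moves from 1.003 to 2.10, Hoxb5 from −1.20 to −0.27 and Hoxa5 from −0.72 to −0.14, and Hoxc4 and Hoxc5 change sign.

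The result without wild type replicate 2 went the other way. That heart had the lowest level in 8 of the 16 tested members, against 17.6% of all genes tested. Leaving it out raises the wild type mean of such members by itself, so the direction of this fit is partly set by the choice of heart. Of the 20 members tested there, 5 had an unadjusted p under 0.05, against 5.72% of all genes. They were Hoxa3, Hoxa4, Hoxa5, Hoxb3 and Hoxb5, all lower in the mutants, and wild type replicate 2 was the lowest wild type heart in each. The smallest of these was that of Hoxa5, with a log2 fold change of −1.15 ± 0.31 and an adjusted p of 0.730 by edgeR. The median log2 fold change of the members tested was then −0.69. Wild type replicate 5 was the highest heart in 7 of the 16, against 29.4% of all genes tested. Without it the log2 fold change was −0.48 for Hoxb3 and −0.24 for Hoxa4, nearer to no change, and −0.94 for Hoxc5, farther from it. The median was −0.42, and no member had an unadjusted p under 0.05 by edgeR, against 12.2% of all genes.

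The remaining tested members overlapped between the groups with all hearts. Hoxa2 had 0.728, 1.36 and 1.43 CPM in the wild type and 0.443, 1.39 and 0.497 CPM in the mutant hearts. Hoxb2, Hoxb9, Hoxd3 and Hoxd4 had log2 fold changes between −0.65 (Hoxd3) and 0.48 (Hoxb9), with standard errors between 0.44 and 0.62. Hoxb9 had 0.0888, 0.365 and 0.136 CPM in the wild type and 0.366, 0.210 and 0.258 CPM in the mutant hearts. Without wild type replicate 3, its highest wild type heart, its groups did not overlap. Its log2 fold change was then 1.31 ± 0.65 with an adjusted p of 0.964 by edgeR. Hoxd3 and Hoxd4 share 62.3% and 52.3% of their exon bases with genes on the same strand, so their counts are uncertain.

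Among members too low for the main test, Hoxb7 and Hoxd1 had groups that did not overlap. These are 2 of the 34 members with at least 1 count, against 9.24% of all genes with at least 1 count. Hoxb7, a gene of the trunk and ureteric bud, was counted 11, 7 and 7 times in the wild type and 1, 1 and 0 times in the mutant hearts. Each mutant heart was below each wild type heart. Pooled over hearts the ratio of wild type to mutant was 12.5, with a 95% interval of 3.12 to 109.1 from counting error only. That interval leaves out the spread between hearts. Hoxb7 was picked because its groups separate, so an interval clear of equality was favoured by the choice and is no further support. With no filter on low counts, where 0.127% of 26831 genes passed the adjusted threshold and 5.09% had an unadjusted p under 0.05, the log2 fold change of Hoxb7 was −3.39 ± 1.16, with an adjusted p of 0.685 by edgeR. DESeq2, which called 0.66% of 20013 genes and no Hox gene, gave −3.62 ± 1.46 and an adjusted p of 0.527.

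Hoxd1, the 3′ gene of the Hoxd cluster, had 3, 5 and 2 counts in the wild type hearts and 5, 13 and 17 in the mutants. Wild type replicate 3 and mutant replicate 1 both held 5 counts, and their depths set the order, 0.0869 against 0.0962 CPM. The pooled ratio of mutant to wild type was 3.50, with a 95% counting interval of 1.69 to 7.91. The limits given for the Hoxb7 interval hold here too. Without the filter the log2 fold change was 1.83 ± 0.80, with an adjusted p of 0.886 by edgeR. Hoxc13 was the third member with an unadjusted p under 0.05 in that fit, with an adjusted p of 0.886, and its wild type replicate 5 was at 0 like the mutants.

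By cluster, the summed Hoxa level was 5.25, 19.96 and 12.95 FPKM in the wild type and 6.41, 10.6 and 6.45 FPKM in the mutant hearts. The Hoxb sum was 3.35, 6.00 and 5.38 FPKM against 3.97, 3.79 and 2.96 FPKM. The Hoxc sum was 1.85, 5.15 and 1.09 FPKM against 2.62, 1.93 and 1.96 FPKM. In these clusters the wild type hearts differed from each other by more than the group means did. The Hoxd sum was 0.598, 1.68 and 0.817 FPKM in the wild type and 1.63, 1.62 and 1.49 FPKM in the mutant hearts, and Hoxd8 made most of it in the mutants and in wild type replicate 3. The mutants were alike in Hoxd, and wild type replicate 3 lay just above them. The Hoxd share of all Hox FPKM was 5.41%, 5.14% and 4.04% in the wild type and 11.1%, 9.06% and 11.6% in the mutant hearts. The share also depends on the sum of all Hox genes, 11.05, 32.8 and 20.2 FPKM in the wild type and 14.6, 17.9 and 12.85 FPKM in the mutants. Wild type replicate 3 had the highest Hoxd level and a low share, since its Hox sum was the largest. The groups therefore separate in the share and not in the Hoxd level.

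Wild type replicate 3 stood apart in several genes from the middle of the Hoxa, Hoxb and Hoxc clusters. Hoxa6 had 107 counts there and 1 and 0 in the other wild type hearts, and 9, 3 and 10 in the mutants. Hoxa7 had 86 counts there against 3 and 3 in wild type replicates 2 and 5, and 17, 9 and 5 in the mutants. Hoxa5 had 1133 counts there, Hoxb6 41 and Hoxb8 29, each the highest of the 6 hearts. Outside the middle, Hoxa9 with 21 counts and Hoxa10 with 14 were also highest there, 5.14-fold and 3.43-fold above the median of the other hearts in CPM. Other genes of the middle were not highest there. Hoxb7 had 7 counts there against 11 and 7 in the other wild type hearts, Hoxc8 had 9 counts against 15 in mutant replicate 1, and Hoxd8 lay among the mutants. Hoxa2, Hoxa3 and Hoxa4 stood below wild type replicate 5 in CPM. In the other hearts the share of groups 5 to 8 was 36.8% to 49.98%. Of the 16 tested members, 5 stood at least 2-fold above the median of the other hearts there (31.2%), Hoxa5, Hoxb5, Hoxc4, Hoxc5 and Hoxc6, against 2.36% of all genes tested.

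The same heart held transcripts of organs near the heart. All 8 liver genes were listed, and their sum ran from 3.07 to 794.7 CPM in the wild type and from 3.17 to 22.5 CPM in the mutants. Alb was at 303.1 CPM and Afp at 358.6 CPM in wild type replicate 3. Alb was at 0 in wild type replicate 2, and Afp was at or below 14.9 CPM in each other heart. The skeletal muscle regulators Myod1 and Myog stood at 5.65 and 20.3 CPM, against at most 0.551 and 2.65 CPM elsewhere, and the embryonic myosin Myh3 at 27.4 CPM against at most 2.73. The sum of all 8 skeletal muscle genes, some of which the heart also expresses, differed less, with 264.0 to 340.7 CPM in the wild type and 157.2 to 241.8 CPM in the mutants. The part of these tissues in the Hox levels was not tested.

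**Figure D5:**
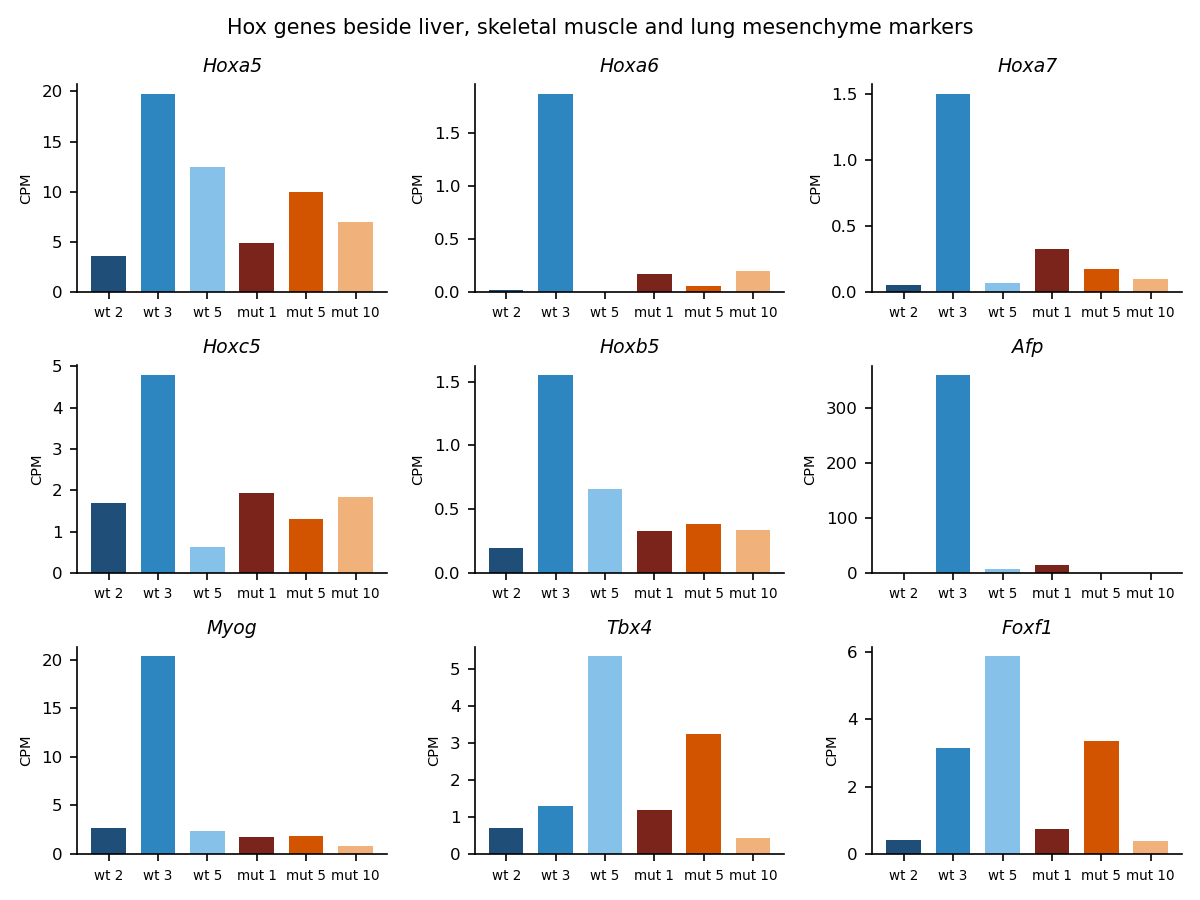
CPM in each heart, as bars from 0, of Hoxa5, Hoxa6, Hoxa7, Hoxc5 and Hoxb5 beside Afp (liver), Myog (skeletal muscle), Tbx4 and Foxf1 (mesenchyme of lung and foregut). Hoxa6, Hoxa7, Afp and Myog are high in wild type replicate 3, and Tbx4 and Foxf1 are highest in wild type replicate 5, with 5.34 and 5.86 CPM.

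Lung and foregut transcripts summed highest in wild type replicate 5 and mutant replicate 5. Some of these genes were also high in wild type replicate 3. Foxf1, a regulator of lung and gut mesenchyme, stood at 0.426, 3.13 and 5.86 CPM in wild type replicates 2, 3 and 5 and at 0.750, 3.34 and 0.378 CPM in mutant replicates 1, 5 and 10. Wild type replicates 3 and 5 and mutant replicate 5 had the most Foxf1 and the most Hoxa5, in another order. The 8 genes did not all follow this order. Hhip stood at 0.0869 CPM in wild type replicate 3, below the 0.142 CPM of wild type replicate 2, Fgf10 was highest in wild type replicate 3 and low in wild type replicate 5, with 3.83 and 1.41 CPM, and Ptch1 varied only from 35.9 to 41.5 CPM. The sum of 8 genes of lung and foregut mesenchyme ran from 43.4 to 64.8 CPM in the wild type and from 39.6 to 58.1 CPM in the mutants. Nkx2-1 and Shh, from the list of lung and foregut epithelium, were at 0 in wild type replicates 2 and 3 and mutant replicate 10. Nkx2-1 stood at 1.45 and 1.24 CPM in wild type replicate 5 and mutant replicate 5. The part of these tissues in the level of Hoxa5 was not tested.

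Genes for the proteins that bind DNA together with Hox factors were expressed in every heart. All 9 cofactor genes of the TALE homeodomain class were tested. None passed the threshold, against 0.0% of all genes tested, and none had an unadjusted p under 0.05, against 5.73% of all genes. Their summed level was 539.9 to 649.8 CPM in the wild type and 580.1 to 615.5 CPM in the mutant hearts. Meis3 had the smallest p, with a log2 fold change of −0.25 ± 0.15 and an adjusted p of 0.956 by edgeR.

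No gene that acts upstream of Hox expression passed the threshold, like all other genes tested. Of 25 genes of retinoic acid handling and of other Hox regulators, 20 were tested. Aldh1a1 and Egr2, towards higher, and Dhrs3, towards lower values in the mutants, had an unadjusted p under 0.05, 3 of 20 against 5.73% of all genes. Aldh1a1, which makes retinoic acid, had 7.80, 7.23 and 3.73 CPM in the wild type and 13.2, 9.96 and 15.6 CPM in the mutant hearts, without overlap, at a log2 fold change of 1.04 ± 0.28 and an adjusted p of 0.578 by edgeR. Aldh1a1 is also an epicardial marker. Of 14 epicardial genes, 6 with Aldh1a1 among them had an unadjusted p under 0.05 towards higher values in the mutants. Tcf21 alone had one towards lower values, and none of the 14 passed the threshold. Over all genes tested 5.73% had an unadjusted p under 0.05 and 0.0% passed the threshold. The summed level of the 14 genes was 344.8 to 631.5 CPM in the wild type and 417.8 to 733.4 CPM in the mutants. The part of that level in the Aldh1a1 values was not tested. Dhrs3, which turns retinaldehyde back into retinol, had 12.7, 13.02 and 14.8 CPM in the wild type and 9.50, 9.44 and 10.97 CPM in the mutants, without overlap, at −0.44 ± 0.13 and an adjusted p of 0.638. Aldh1a2, the main source of retinoic acid in the embryo, overlapped between the groups, with 45.6 ± 18.6 CPM in the wild type and 38.0 ± 13.4 CPM in the mutants. Cdx2, which activates trunk Hox genes, was listed at 0 in each heart.

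The 32 Polycomb and trithorax genes, which keep Hox clusters silent or active, were all tested. None passed the threshold, which 0.0% of all genes tested passed. None had an unadjusted p under 0.05, against 5.73% of all genes. Cbx2 had the smallest p, with a log2 fold change of −0.26 ± 0.14 and an adjusted p of 0.939 by edgeR. Ezh2, the Polycomb methyltransferase, averaged 70.3 ± 10.9 CPM in the wild type and 63.3 ± 2.58 CPM in the mutants.

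Of 28 non-coding RNAs and neighbours of the clusters, 25 were in the tables and 10 were tested. None was past the threshold, against 0.0% of all genes tested, and none had an unadjusted p under 0.05, against 5.73% of all genes. Hotair, Hottip and Hoxa11os, transcripts of the 5′ parts of the clusters, were at 0 in each heart. Hoxaas2, which runs antisense within the Hoxa cluster, had the smallest p, at 1.23, 1.77 and 2.36 CPM in the wild type and 1.23, 1.22 and 1.07 CPM in the mutant hearts, and a log2 fold change of −0.60 ± 0.30 with an adjusted p of 0.924 by edgeR. It lies opposite Hoxa3, with which it shares 8.36% of the Hoxa3 exon bases. Haglr, antisense in the Hoxd cluster, had 8, 19 and 10 counts in the wild type and 13, 28 and 15 counts in the mutant hearts, with overlap. Genes beside the clusters that are not of the Hox family, such as Mtx2 next to Hoxd, were counted in every heart, Mtx2 6567 to 7395 times.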

How the data were processed

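Whole E13.5 hearts were profiled by RNA-seq, 1 heart per library, 3 per group. According to the study's methods the reads were trimmed, aligned with STAR to the mouse genome (mm10) and counted on GENCODE genes with featureCounts. The submitters' processing notes name HTSeq and DESeq2 without a role. The authors deposited the counts per gene without normalization, and FPKM values, which equal the count over the gene length and the library total. A table of group means was not used here, and 0 columns with values of a sample remained unmapped.

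Counts were tested with edgeR 4.0.16 (R 4.3.3) by the quasi-likelihood test with TMM size factors, filterByExpr (minimum count 10, minimum total 15) and Benjamini-Hochberg adjustment over all genes tested, two-sided, at 0.05. The SE is that of the log2 fold change. CPM are counts scaled to the TMM library size. Alternatives were DESeq2 1.42.0, limma 3.58.1 (voom, and trend fits on log2 of FPKM plus 1 or plus 0.1), other size factors and filters, a gene length correction and leaving out hearts. Positions are from GENCODE M21 (GRCm38), which the study's annotation version differs from. The script was tested on simulated data. Full values were given to the 5 members with the smallest p, the 5 with the highest mean FPKM and those whose groups do not overlap, and from each other list to the gene with the smallest p. Other genes were named after their values were seen. Values of 1 member and of 1 gene of another list are not reported here, although sums and counts include them. The members and lists were chosen with earlier results of these data known. Nothing in the sources says more of the replicates than that each is 1 heart, so p-values measure the spread between these hearts.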

Additional observations from a re-analysis of the deposited data

How the results depend on the processing

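No paired analysis was possible because the groups share only 1 replicate number, and the labels give it no meaning. No Hox gene passed the adjusted threshold in any setting but 1, the fit without wild type replicate 3 and without the filter on low counts, where 1 did (Hoxd8). Over all genes the count past the threshold was 0 in the main fit, 132 with DESeq2, 34 without the filter, 13 with the gene length correction, 9 without wild type replicate 5 and mutant replicate 5, 94 without wild type replicate 3 and the filter, and 0 to 44 with each heart left out in turn, 44 without wild type replicate 5. Hox genes with an unadjusted p under 0.05 numbered 0 in the main fit (5.73% of all genes), 1 with DESeq2 (4.32%), voom (5.85%), log2(FPKM + 1) (5.66%), log2(FPKM + 0.1) (5.52%) or without wild type replicate 3 and mutant replicate 5 (2.75%), 3 without the filter (5.09%), 4 without wild type replicate 3 and the filter (5.21%), and 0 to 5 with each heart left out (3.44% to 12.2%). Hox genes whose groups did not overlap numbered 0 in the main fit (11.2% of all genes), 2 of 33 with DESeq2 (9.25%) or 34 without the filter (9.24%), 6 of 16 without wild type replicate 3 and mutant replicate 5 (25.6%), 4 of 20 without wild type replicate 5 and mutant replicate 5 (46.2%), 7 of 34 without wild type replicate 3 and the filter (16.8%), and 0 to 8 with each heart left out (16.6% to 30.1%), 8 of 20 without wild type replicate 2. Fewer hearts per group make such a split more common. The stricter filter kept 10 members. The median log2 fold change of the members was −0.10 on log2(FPKM + 1), 0.069 without wild type replicate 3 and the filter, and −0.69 to −0.14 with each heart left out. Of 282 pairs of gene and setting, 268 kept their direction and side of the threshold, and 12 of the 16 genes kept their direction in all settings run. With single hearts or a pair of hearts left out, the log2 fold change ranged from −0.62 to 0.16 for Hoxb2, from −0.54 to 0.65 for Hoxc4, from −0.94 to 0.69 for Hoxc5 and from −0.76 to 0.875 for Hoxc6. Hoxb2 turned to 0.078 when wild type replicate 5 was dropped. Hoxc4 turned to 0.030 with voom, 0.014 on log2(FPKM + 0.1) and 0.64 when wild type replicate 3 was dropped, and Hoxc5 to 0.53, or 0.54 with the filter dropped too. Hoxc6 turned to −0.34 when wild type replicate 5 was dropped and to −0.76 in the absence of mutant replicate 1. The causes were not tested. Members of a few counts, such as Hoxb7 and Hoxd1, are limited by depth. The settings that leave out a pair of hearts, or drop the filter with a heart, were chosen after seeing the data. For Hoxd8, leaving out wild type replicate 3 widens the difference by itself.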

Other observations

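Evx1, the homeobox gene beyond the 5′ end of the Hoxa cluster, was named after its values were seen. It was counted 4, 6 and 6 times in the wild type and 1, 0 and 0 times in the mutant hearts (replicates in the order used above). It was too low for the main test. Of all genes with at least 1 count, 9.24% had groups that did not overlap. Evx2, the counterpart of Evx1 beside the Hoxd cluster, had 1 count in wild type replicate 5 and 0 in the other hearts.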
